A study of Mus musculus with 8 samples.

Results

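The epsins and the machinery of clathrin-mediated endocytosis were followed through RNA sequencing of mouse macrophages, as 46 genes grouped by their roles in a coated pit. The 46 symbols are a list of known components. All 46 of 46 were listed in each count table, among 24421 gene symbols in all. The tables covered primary macrophages of mice on a normal diet. Wild type (WT) was given by 3 libraries, the label LysM-DKO by 3 and the label ABCG1KO by 2. Epsin-DKO stands for the first of these mutants in the series' own design note, and LysM is the usual name of Cre driven from the Lyz2 locus, which acts in macrophages, monocytes and neutrophils. The labels name neither the deleted epsins nor the alleles, and they give no strain, age, sex or tissue of origin. They do not say whether the libraries of a group came from separate mice. By the sex-linked genes below, LysM-DKO 1 differed in sex from LysM-DKO 2 and LysM-DKO 3, so that group was not from a single mouse. The p-values below measure the spread between these libraries, which may still be technical, at least in part.

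Clathrin-mediated endocytosis carries receptors and their ligands into the cell. Clathrin triskelia, made of a heavy and a light chain, polymerise on the membrane over adaptors such as AP2, while epsins bind ubiquitinated cargo, bend the membrane and recruit clathrin. Dynamin cuts the neck of the pit, and auxilin-type J proteins with Hsc70 strip the coat. In macrophages this route takes up lipoproteins and transferrin, and it clears signalling receptors from the surface.

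The libraries held 29567615 to 41888516 counts in genes. At least 11 of 12 macrophage markers stood above 1 CPM in every library of each group. That count alone does not single out macrophages, since at least 6 of 7 fibroblast markers did the same. The macrophage label matched the summed levels, where macrophage markers were far above those of the other cell types listed. CPM is the count of a gene on the usual scale of that name, over the library size scaled by TMM factors. The summed level of the macrophage markers was 20074 to 22975 CPM in WT, 12858 to 14865 CPM in the libraries labelled LysM-DKO and 19610 to 23823 CPM in ABCG1KO. Without Lyz2, the most abundant of them, the sum over the other 11 was 7072 to 7462 CPM, 6682 to 6843 CPM and 8375 to 9413 CPM in the same order. Abcg1 was at 345 to 405 CPM in WT, 208 to 524 CPM in the libraries labelled LysM-DKO, and 60.4 and 73.4 CPM in ABCG1KO. The ABCG1KO libraries stood apart from the rest, with 6.74% to 6.93% of reads aligned to several loci against 2.65% to 3.01%, and 10.2% to 13.8% of reads outside annotated genes against 4.26% to 6.07%. Both ABCG1KO libraries and LysM-DKO 1 held Ddx3y, a Y-linked gene (81.6 to 94.7 CPM), and almost no Xist. All WT libraries, LysM-DKO 2 and LysM-DKO 3 showed the reverse. So in ABCG1KO against WT the genotype and the sex of the mice cannot be told apart. Among the libraries labelled LysM-DKO, only LysM-DKO 1 matched ABCG1KO in sex. It differed in sex from every WT library, so the comparison of its group with WT sets mixed sexes against a single one. The part of sex in that comparison was not tested. In both comparisons with ABCG1KO, genotype also cannot be told apart from a difference in library or processing behind the read shares above. Fibroblast markers summed to 759 to 917 CPM in WT, 688 to 1676 CPM in the libraries labelled LysM-DKO and 161 and 1188 CPM in ABCG1KO. Mast cell markers summed to 11.8 and 49.9 CPM in ABCG1KO and to at most 3.64 CPM elsewhere, and dendritic cell markers to 12.6 and 12.9 CPM against at most 8.72 CPM. B cell markers summed to at most 1.499 CPM in the libraries labelled LysM-DKO and to at least 2.54 CPM in the other groups. The part of other cells in the results below was not tested. In bulk RNA, fewer cells of a type and less RNA per cell cannot be told apart.

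Epn1, the epsin found in most tissues, was the main epsin of these macrophages. Its level was 230, 203 and 191 CPM in WT, 169, 183 and 155 CPM in the libraries labelled LysM-DKO, and 182 and 155 CPM in ABCG1KO. On this scale, every WT library was above every library of the other groups. By library size alone, WT and the libraries labelled LysM-DKO overlapped. LysM-DKO 2 held 7494 Epn1 counts among 39017302, against 7370 among 39401905 in WT 2. The gene lies at chr7:5080235-5098178 on the plus strand (GENCODE M21, GRCm38). Libraries labelled LysM-DKO held 81.1% of the WT level (log2 fold change -0.30, 95% interval -0.61 to 0.0011, adjusted p = 0.430), and ABCG1KO held the same 81.1% (-0.30, interval -0.64 to 0.04, adjusted p = 0.206). Neither difference passed the test, which is edgeR's quasi-likelihood F test with a Benjamini-Hochberg adjusted p under 0.05 over all 13821 genes tested. With library sizes in place of TMM factors, the difference for the libraries labelled LysM-DKO shrank to -0.15 (adjusted p = 0.574). Over the alternatives, the difference for ABCG1KO ran from -0.43 to -0.07.

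Epn2, its close relative, was scarce. It stood at 8.18, 8.86 and 4.97 CPM in WT, at 5.67, 13.2 and 6.30 CPM in the libraries labelled LysM-DKO, and at 18.6 and 18.5 CPM in ABCG1KO. The first and second groups overlapped, and both ABCG1KO libraries were above all others. Against WT the log2 fold change was 0.20 ± 0.36 (SE) for the libraries labelled LysM-DKO (interval -0.64 to 1.03, adjusted p = 0.851), and it turned to -0.31 without LysM-DKO 2 and to -0.02 without WT 3. For ABCG1KO it was 1.34 ± 0.40 with an adjusted p of 0.0570. That value missed the threshold in the edgeR fit and passed it in 4 of 21 alternatives, DESeq2 among them (adjusted p = 0.0100). Libraries labelled LysM-DKO against ABCG1KO gave -1.14 ± 0.40 (adjusted p = 0.0971). This difference passed with DESeq2 (-1.17, adjusted p = 0.0299) and without LysM-DKO 2 (-1.65, adjusted p = 0.0290).

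Between the libraries labelled LysM-DKO and WT, the Epn1 levels did not overlap after TMM scaling but did by library size alone, and the Epn2 levels overlapped. Neither of these genes, the usual targets of an epsin knockout, passed the test. A count per gene does not show which exons the reads came from, and a deletion of one exon can leave the count of the rest of the transcript in place, so these totals check the label only in part. Directions for this group are given as those of the libraries so labelled. Lyz2, the gene whose locus carries Cre in LysM lines, was at 13002 to 15707 CPM in WT and 6176 to 8104 CPM in the libraries labelled LysM-DKO.

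Epn3, an epsin of epithelia and stomach, had 5, 0 and 0 counts in WT, 0, 0 and 5 in the libraries labelled LysM-DKO, and 1 and 0 in ABCG1KO. It did not pass the filter on low counts. Clint1, the epsin-related adaptor that works at the trans-Golgi network and endosomes, was at 124, 131 and 128 CPM in WT, 138, 139 and 134 CPM in the libraries labelled LysM-DKO, and 153 and 162 CPM in ABCG1KO. The groups did not overlap, yet the differences were small. The log2 fold changes against WT were 0.10 ± 0.10 and 0.30 ± 0.11 (adjusted p = 0.694 and 0.106), and the second passed with library sizes in place of TMM factors (0.54, adjusted p = 0.0144).

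Scaled by exon length, Epn1 made up 98.1% ± 0.458 of the Epn1, Epn2 and Epn3 total in WT, 97.4% ± 1.04 in the libraries labelled LysM-DKO and 94.4% ± 0.572 in ABCG1KO. Errors of shares and ratios are SDs over the 3, 3 and 2 libraries of the groups. Epn2 accounted for 1.85%, 2.55% and 5.60% in the same order. The Epn2 share was 5.19% and 6.01% in the ABCG1KO libraries and at most 3.75% in all others.

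The 250 bases before the start of Epn1 (chr7:5079985-5080234, plus strand) and of Epn2 (chr11:61579688-61579937, minus strand) are given from RefSeq, GRCm38.p6, because the genes differ so widely in level. They are written 5′ to 3′ with each CG pair in capitals.
Epn1: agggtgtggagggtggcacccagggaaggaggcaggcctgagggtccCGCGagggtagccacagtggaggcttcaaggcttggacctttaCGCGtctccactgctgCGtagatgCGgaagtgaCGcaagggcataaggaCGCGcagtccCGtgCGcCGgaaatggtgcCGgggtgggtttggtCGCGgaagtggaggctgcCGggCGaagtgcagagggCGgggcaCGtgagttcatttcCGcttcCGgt
Epn2: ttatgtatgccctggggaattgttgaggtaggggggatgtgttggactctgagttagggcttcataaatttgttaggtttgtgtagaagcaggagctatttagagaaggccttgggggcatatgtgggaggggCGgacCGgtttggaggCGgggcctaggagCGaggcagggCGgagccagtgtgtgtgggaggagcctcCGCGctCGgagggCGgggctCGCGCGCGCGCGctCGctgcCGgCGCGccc
Epn1 held 21 CG pairs and Epn2 19, although the WT level per kb of exons was 74.1 CPM for Epn1 and 1.40 CPM for Epn2. A window was found for 38 of the 46 genes. It was the RefSeq window nearest the annotated gene start, without a limit on distance. Those of Eps15 (from chr4:109342806, gene start 109280268), Synj2 (chr17:5975330, 5941280), Dnajc6 (chr4:101507726, 101496648) and Ap2b1 (chr11:83302447, 83299024) lay well inside the gene. The values below thus include windows away from the annotated start. The median was 19 CG pairs among the 33 with a WT level of at least 1 CPM per kb and 12 among the 5 below it, beside a median of 6 over all 32851 windows of the RefSeq table. The letters GGGCGG, the core of the SP family box, were found on either strand in 57.9% of the members' windows and in 32.7% of all windows. CACGTG, the E-box, was found in 13.2% and 6.02%, and TATAAA, the TATA box, in 2.63% and 12.4%. CCGGAAG, an ETS site, was found in 13.2% and 6.91%, and the NRF1 site in 13.2% and 3.74%. All motifs were searched on both strands, and those with a CG overlap the CG count. These matches describe the letters and do not show that a factor binds.

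**Figure D1:**
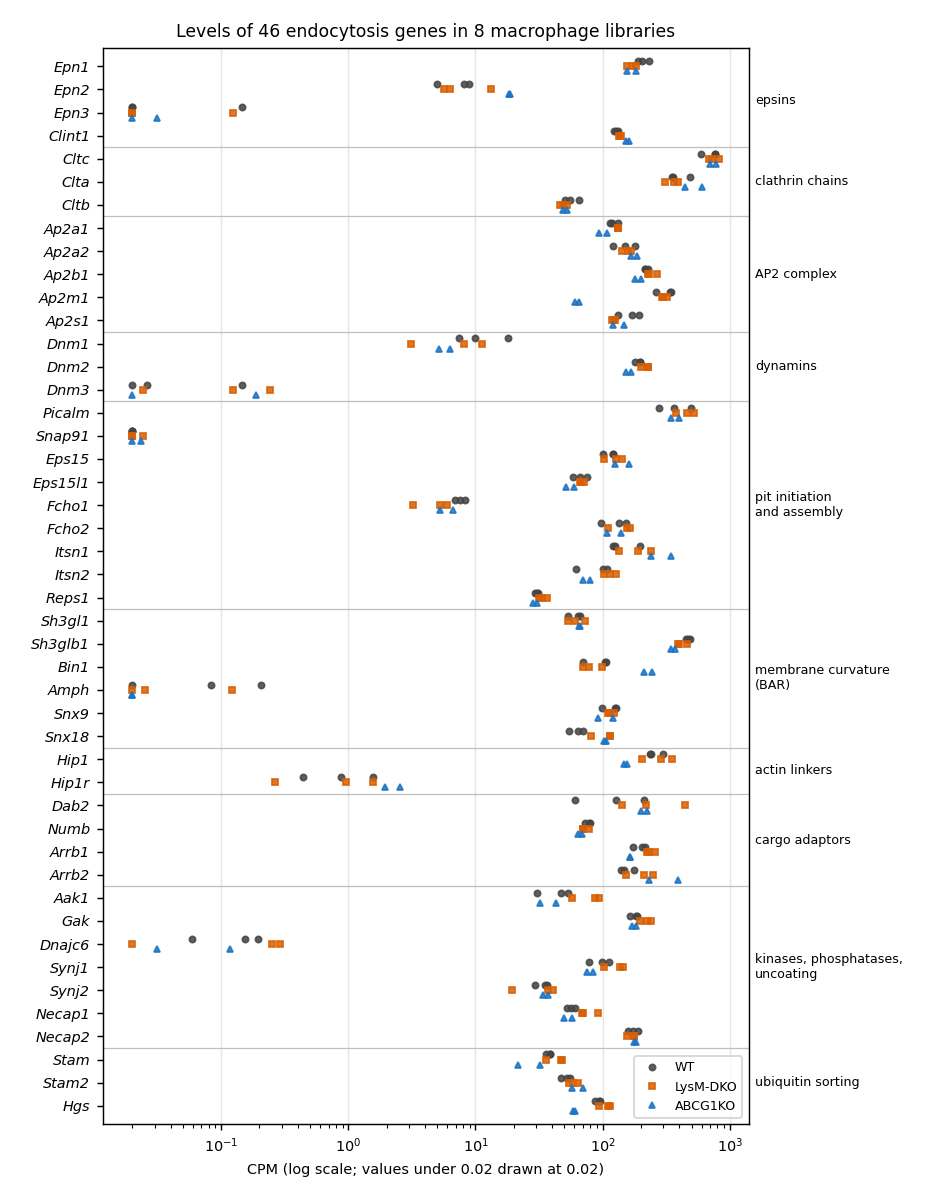
Level of each of the 46 genes in each of the 8 libraries, in CPM on a log axis, with circles for WT, squares for LysM-DKO and triangles for ABCG1KO, grouped by role. Cltc (599 to 829 CPM) is the highest gene, 5 genes stayed below 1 CPM in every library, and the ABCG1KO triangles of Ap2m1 (60.4 and 64.9 CPM) lie far left of the other libraries (261 to 347 CPM).

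The levels of the 46 genes ranged from no count (Snap91 in 6 libraries) to 829 CPM (Cltc in LysM-DKO 3). Per kb of exons in WT, the light chain Clta was highest at 220 ± 41.9 CPM (SD, n = 3), followed by Ap2s1 at 112 ± 21.0 CPM, Cltc at 83.7 ± 11.5 CPM, Ap2m1 at 76.4 ± 11.4 CPM and Epn1 at 74.1 ± 6.99 CPM. From the third to the fifth, neighbours differed by less than the spread between libraries. At the other end were forms known mainly from brain. Snap91, the neuronal relative of Picalm, had no WT count, and Dnm3, Amph and Dnajc6 reached at most 0.292 CPM in any library. Snap91, Dnm3, Amph and Epn3 did not pass the filter on low counts, which left 42 genes for the tests. Neuronal markers summed to 21.1 to 43.9 CPM in WT, with 3 of 7 at or under 3 counts in all libraries.

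In libraries labelled LysM-DKO against WT, no member passed the test among the 42 tested, which does not show that their levels were alike. This comparison called 3 genes in all, 1 higher (0.00724%) and 2 lower (0.0145%), which is 0.0217% of the 13821 genes tested. At an unadjusted p under 0.05 there were 5 members (11.9%), namely Aak1, Gak, Necap1 and Snx18 with higher and Ap2s1 with lower values, against 11.7% of all genes. DESeq2 called 278 genes and, among the members, Snx18. The median log2 fold change was 0.12 over the 42 members and 0.02 over all genes tested. Of the members, 37 had a log2 fold change within 0.5 of zero. The groups did not overlap for 12 members (28.6%), against 21% of all genes tested. Of these, 9 were higher in the libraries labelled LysM-DKO (background 11%) and 3 were lower (background 9.98%).

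In ABCG1KO against WT, 5 of the 42 members passed the test (11.9%), while 15.9% of all genes tested passed. Bin1, Arrb2 and Snx18 rose (7.14% of members, background 7.16%), and Ap2m1 and Hgs fell (4.76% of members, background 8.75%). Of all genes, 990 were called higher and 1209 lower. With library sizes in place of TMM factors the median of all genes moved from 0.01 to 0.25 on the log2 scale, and the split was 2054 higher and 856 lower. Among the members that scaling called 7 higher and 1 lower. At an unadjusted p under 0.05 there were 11 members (26.2%), against 31.7% of all genes. The groups did not overlap for 22 members (52.4%), against 48.2% of all genes, with 9 higher (background 23.9%) and 13 lower (background 24.2%) in ABCG1KO. Leaving out ABCG1KO 1 reduced the calls from 2199 to 827 genes and from 5 to 1 member, Ap2m1. Without WT 1, WT 2 or WT 3, the calls were 1369, 1173 and 1319 genes and 3, 3 and 2 members.

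In libraries labelled LysM-DKO against ABCG1KO, 6 of 42 members passed (14.3%), against 13.5% of all genes tested. Ap2m1, Hgs, Hip1, Aak1 and Arrb1 were higher in the libraries labelled LysM-DKO (background 7.72%), and Bin1 was lower (background 5.8%). The split over all genes was 1067 higher and 802 lower, and 886 and 1016 with library sizes alone. Without ABCG1KO 1, LysM-DKO 1 or LysM-DKO 2 the calls fell from 1869 to 540, 931 and 1023 genes, and without ABCG1KO 1, LysM-DKO 1, WT 2 or WT 3 the members called were 2, 3, 3 and 3. At an unadjusted p under 0.05 there were 15 members (35.7%), against 30.9% of all genes. The groups did not overlap for 24 members (57.1%), against 48.2%, with 17 higher (background 25.6%) and 7 lower (background 22.6%). The 3 comparisons share libraries pairwise, so their values for a gene are given side by side and are not independent of each other.

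**Figure D2:**
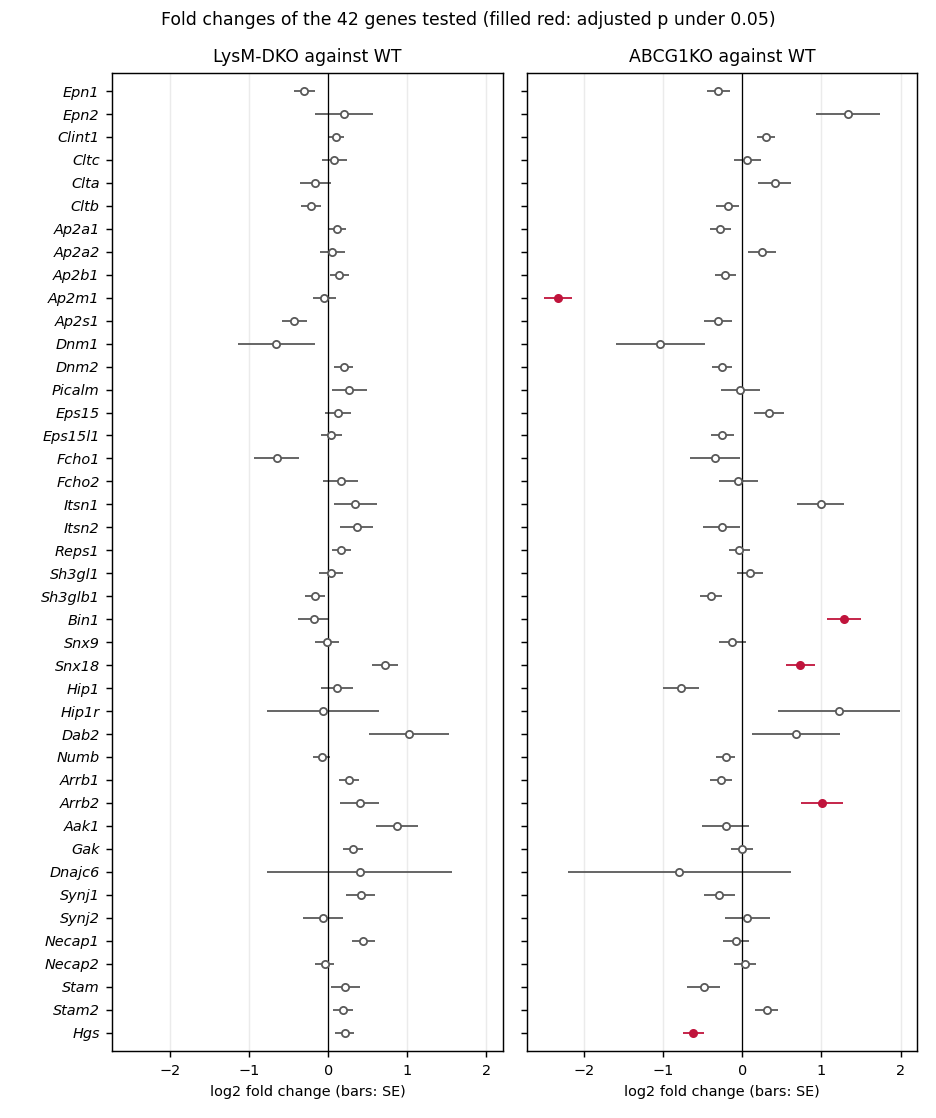
Log2 fold change of each of the 42 tested genes against WT, with bars for the standard error, for LysM-DKO on the left and ABCG1KO on the right. No point passed on the left. On the right, the 5 filled points are Ap2m1 (-2.33), Hgs (-0.62), Snx18 (0.73), Arrb2 (1.00) and Bin1 (1.28).

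Among the clathrin chains, none passed in any comparison. Cltc, the only heavy chain of most cells, was at 599, 767 and 768 CPM in WT, 692, 729 and 829 CPM in the libraries labelled LysM-DKO, and 704 and 781 CPM in ABCG1KO. All groups overlapped, and the log2 fold changes against WT were 0.08 ± 0.16 and 0.06 ± 0.17 (SE). Clta, the first light chain, was at 484, 350 and 356 CPM in WT, at 390, 309 and 365 CPM in the libraries labelled LysM-DKO and at 608 and 445 CPM in ABCG1KO. Its fold change was 0.41 ± 0.21 in ABCG1KO against WT (adjusted p = 0.226). Cltb, the second light chain, was at 65.1, 55.5 and 50.5 CPM in WT, 48.7, 46.5 and 52.4 CPM in the libraries labelled LysM-DKO, and 52.1 and 48.4 CPM in ABCG1KO. Clta was the dominant light chain, at 94.9% ± 0.409 of the light chain total per kb in WT, 95.1% ± 0.439 in the libraries labelled LysM-DKO and 96.5% ± 0.560 in ABCG1KO.

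The AP2 complex links cargo and membrane lipid to clathrin through alpha, beta, mu and sigma subunits. Ap2m1, the mu subunit that reads tyrosine-based sorting signals, was the member with the largest fold change. It lies at chr16:20535478-20544909 on the plus strand (GENCODE M21, GRCm38). Its level was 347, 336 and 261 CPM in WT, 324, 293 and 299 CPM in the libraries labelled LysM-DKO, and 60.4 and 64.9 CPM in ABCG1KO. The first and second groups overlapped, while both ABCG1KO libraries were far below them. ABCG1KO held 19.9% of the WT level (log2 fold change -2.33 ± 0.17, adjusted p = 0.000132), and libraries labelled LysM-DKO stood 4.87-fold above ABCG1KO (2.28 ± 0.17, adjusted p = 0.000148). Both calls held in the 20 of 21 alternatives that tested the gene.

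Ap2m1 was also the member with the most sequence in common with other loci. Of its 50-base transcript stretches, 28.8% were found in transcripts of another locus, mostly the processed pseudogene Gm13509 (25.7%), and no other member was above 1.81%. The count tables keep reads aligned to several loci in a line of their own, outside the genes. Among the 351 tested genes with 20% to 50% of such stretches, 48.4% were called in ABCG1KO against WT, 157 lower and 13 higher, with a median log2 fold change of -1.03. Among the 7637 genes with none, 13.5% were called and the median was 0.05. In libraries labelled LysM-DKO against WT, none of the 351 genes was called and their median was -0.15. The level of Ap2m1 moved together with these shared-sequence genes and with the share of reads aligned to several loci, and their part in the fall was not tested.

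The other AP2 subunits did not pass in any comparison. Ap2b1, the beta subunit that binds clathrin, was at 214, 229 and 216 CPM in WT, 266, 231 and 229 CPM in the libraries labelled LysM-DKO, and 179 and 199 CPM in ABCG1KO. The alpha subunits Ap2a1 and Ap2a2 shared the pool about evenly, with Ap2a1 at 45.8% to 56.4% in WT, 51.2% to 54.9% in the libraries labelled LysM-DKO and 39.6% and 45.9% in ABCG1KO. Ap2s1, the sigma subunit that reads dileucine signals, was at 194, 169 and 133 CPM in WT against 119, 123 and 126 CPM in the libraries labelled LysM-DKO, so that all WT libraries were above these. The log2 fold change was -0.43 ± 0.16 (adjusted p = 0.385). The ratio of Ap2m1 to Ap2b1 per kb was 3.05 ± 0.452 in WT, 2.68 ± 0.0958 in the libraries labelled LysM-DKO and 0.705 ± 0.0177 in ABCG1KO.

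Dnm2, the dynamin of most tissues, supplied nearly all dynamin transcript. It was at 179, 196 and 197 CPM in WT, 226, 226 and 202 CPM in the libraries labelled LysM-DKO and 152 and 167 CPM in ABCG1KO. The 3 groups did not overlap, but the log2 fold changes against WT of 0.19 ± 0.11 and -0.26 ± 0.13 did not pass (adjusted p = 0.531 and 0.217). Dnm2 against ABCG1KO differed by 0.45 ± 0.13 in the libraries labelled LysM-DKO (adjusted p = 0.0558), and DESeq2 called this difference (0.43, adjusted p = 0.0182). Dnm1, the neuronal dynamin, ranged from 3.10 to 18.1 CPM over all libraries.

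Among the 9 genes of pit initiation and assembly, none passed in the edgeR fit. Picalm, which binds clathrin, membrane lipid and small SNARE proteins, was the highest of them at 279, 492 and 367 CPM in WT, 464, 523 and 380 CPM in the libraries labelled LysM-DKO, and 398 and 346 CPM in ABCG1KO. The groups overlapped. Snap91 had 1 count in LysM-DKO 2, 1 in ABCG1KO 2 and 0 in the other libraries. Its promoter window (chr9:86880709-86880958, minus strand, RefSeq, GRCm38.p6) is shown as that of a gene with at most 1 count per library and a CG count above those of Epn1 and Epn2, again with CG pairs in capitals.
Snap91: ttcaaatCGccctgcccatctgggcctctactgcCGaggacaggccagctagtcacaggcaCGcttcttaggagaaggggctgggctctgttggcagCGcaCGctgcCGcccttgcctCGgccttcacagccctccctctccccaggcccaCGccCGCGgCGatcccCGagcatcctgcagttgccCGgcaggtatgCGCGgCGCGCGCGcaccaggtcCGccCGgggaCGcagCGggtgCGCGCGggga
It held 26 CG pairs. Since the gene was picked for this count, these 3 windows do not show how CG count and level go together.

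Itsn1, an intersectin scaffold that holds Eps15, dynamin and actin regulators together, was at 126, 196 and 122 CPM in WT and at 347 and 241 CPM in ABCG1KO. The groups did not overlap, and the log2 fold change was 0.99 ± 0.30 (adjusted p = 0.0591). It passed in 5 of 21 alternatives, namely DESeq2 (adjusted p = 0.0122), library sizes in place of TMM factors (1.22, adjusted p = 0.0249), at least 10 counts in every library, and without WT 2 or LysM-DKO 3 (adjusted p of 0.0460 to 0.0496). The libraries labelled LysM-DKO lay between, at 189, 239 and 134 CPM, and overlapped WT. Its paralog Itsn2 was at 61.5 to 108 CPM in WT and 70.4 and 79.4 CPM in ABCG1KO. Itsn2 was higher in the libraries labelled LysM-DKO than in ABCG1KO by 0.62 ± 0.24 (adjusted p = 0.121), which passed only without WT 1. The Itsn1 share of the pair per kb was 39.6% to 54.2% in WT and 74.1% and 63.7% in ABCG1KO. Eps15, Eps15l1, Fcho1, Fcho2 and Reps1 did not pass in any comparison, with log2 fold changes of -0.65 to 0.34 against WT.

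The genes for membrane curvature held 2 of the 3 that rose in ABCG1KO. Bin1, a BAR domain protein that tubulates membrane and binds dynamin, was at 104, 106 and 70.7 CPM in WT, 69.7, 99.1 and 78.1 CPM in the libraries labelled LysM-DKO, and 245 and 210 CPM in ABCG1KO. Both ABCG1KO libraries were far above every other library. Against WT, Bin1 rose by 1.28 ± 0.22 on the log2 scale (2.43-fold, adjusted p = 0.00790), and libraries labelled LysM-DKO held 36.2% of the ABCG1KO level (-1.47 ± 0.22, adjusted p = 0.00540). The call against WT was lost without ABCG1KO 1 (1.16, adjusted p = 0.0513) and held in the other 20 alternatives. The call against the libraries labelled LysM-DKO held in all 21. Its exons overlap an RNA gene of the opposite strand, A830052D11Rik, and reads of both cannot be told apart without strand.

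Snx18, a sorting nexin with a BAR domain that binds AP1 and dynamin, was at 53.9, 69.8 and 64.2 CPM in WT, 81.2, 113 and 113 CPM in the libraries labelled LysM-DKO, and 106 and 103 CPM in ABCG1KO. Every library of both mutant groups was above every WT library. In ABCG1KO it rose by 0.73 ± 0.18 (1.66-fold, adjusted p = 0.0307). In the libraries labelled LysM-DKO the log2 fold change was of like size, 0.71 ± 0.16, but did not pass with edgeR (adjusted p = 0.273), and DESeq2 called it (0.69, adjusted p = 0.0219). The 2 mutant groups differed by -0.02 ± 0.18 (interval -0.44 to 0.40). The call in ABCG1KO was lost when any library of either group was left out, with adjusted p from 0.0514 without WT 2 to 0.116 without ABCG1KO 1. Both comparisons rest on the same WT libraries. The promoter window of Snx18 (chr13:113618565-113618814, minus strand, RefSeq, GRCm38.p6) is shown because the gene was above WT in every mutant library, with CG pairs in capitals.
Snx18: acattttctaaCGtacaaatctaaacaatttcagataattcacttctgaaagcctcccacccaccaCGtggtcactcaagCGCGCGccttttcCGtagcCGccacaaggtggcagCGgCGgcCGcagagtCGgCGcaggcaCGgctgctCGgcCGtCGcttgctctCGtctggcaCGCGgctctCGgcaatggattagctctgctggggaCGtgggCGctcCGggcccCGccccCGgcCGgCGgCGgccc
It held 28 CG pairs, 1 match of GGGCGG and 1 match of CACGTG.

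The remaining curvature genes did not pass. Sh3glb1, an endophilin of the B type that acts on endosomes, autophagosomes and mitochondria, was at 473, 449 and 485 CPM in WT, 465, 398 and 393 CPM in the libraries labelled LysM-DKO, and 368 and 345 CPM in ABCG1KO. ABCG1KO was below all other libraries, with a log2 fold change against WT of -0.40 ± 0.14 (adjusted p = 0.0973). Sh3gl1 and Snx9 overlapped between all groups. Snx18 made up 27.1% ± 0.954 of the Snx9 and Snx18 pair in WT, 38.01% ± 5.66 in the libraries labelled LysM-DKO and 40.5% ± 5.18 in ABCG1KO, per kb of exons.

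**Figure D3:**
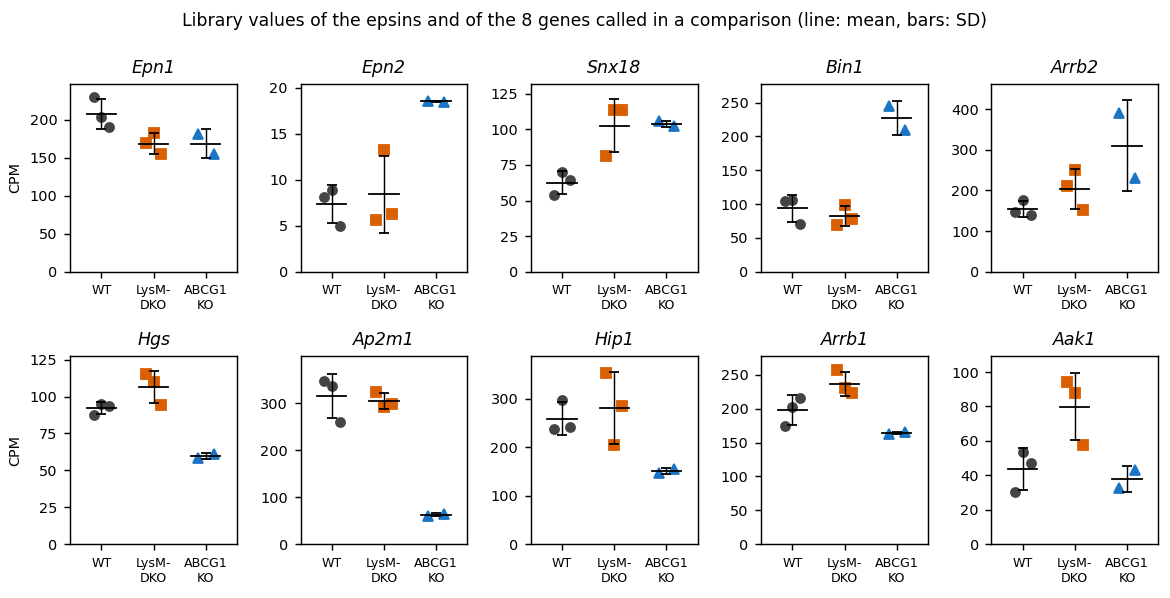
CPM of Epn1, Epn2 and the 8 genes called in at least 1 comparison, with one point per library, a line at the group mean and bars for the SD. Bin1 and Epn2 are highest in both ABCG1KO libraries, Ap2m1, Hgs and Hip1 are lowest there, and Snx18 is above WT (53.9 to 69.8 CPM) in every mutant library.

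Hip1, which ties clathrin coats to actin, was at 238, 298 and 242 CPM in WT, 353, 205 and 286 CPM in the libraries labelled LysM-DKO, and 147 and 155 CPM in ABCG1KO. ABCG1KO was below all other libraries. Libraries labelled LysM-DKO were higher than ABCG1KO by 0.89 ± 0.23 (1.86-fold, adjusted p = 0.0415), and ABCG1KO against WT gave -0.78 ± 0.23, which missed the threshold (adjusted p = 0.0561) and passed in 4 of 21 alternatives, DESeq2 among them (adjusted p = 0.0183). The call of the libraries labelled LysM-DKO against ABCG1KO held in 11 of 21 alternatives. It was lost without LysM-DKO 1 or LysM-DKO 3, without either ABCG1KO library and without any 1 WT library, with adjusted p of 0.0586 to 0.205. It was also lost with the replicate block (adjusted p = 0.0992), with only both groups in the fit (0.0962) and when genes with 1% or more of shared stretches were left out (0.0502). Its paralog Hip1r was at 0.440 to 1.57 CPM in WT and at 1.94 and 2.55 CPM in ABCG1KO, and its exons overlap Vps37b on the opposite strand over 918 bases.

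Of the cargo adaptors, both arrestins were called, in different comparisons. Arrb2, which takes activated receptors into pits, was at 146, 178 and 140 CPM in WT, 210, 249 and 152 CPM in the libraries labelled LysM-DKO, and 389 and 231 CPM in ABCG1KO. It rose in ABCG1KO against WT by 1.00 ± 0.27 (2.01-fold, adjusted p = 0.0397), although the 2 ABCG1KO libraries differed widely. That call held in 13 of 21 alternatives and was lost without ABCG1KO 1 (0.57, adjusted p = 0.243), without LysM-DKO 1 (adjusted p = 0.0541) and without any 1 WT library (adjusted p of 0.0697 to 0.107). It was also lost with the replicate block (0.86, adjusted p = 0.105), with only both groups in the fit (adjusted p = 0.05001) and among genes with under 1% shared sequence (adjusted p = 0.0551).

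Arrb1, the other arrestin of non-visual cells, was at 174, 203 and 216 CPM in WT, 257, 231 and 223 CPM in the libraries labelled LysM-DKO, and 163 and 165 CPM in ABCG1KO. The groups did not overlap. Libraries labelled LysM-DKO were higher than ABCG1KO by 0.53 ± 0.14 (1.44-fold, adjusted p = 0.0472), a call kept in 8 of 21 alternatives. It was lost when any single LysM-DKO or ABCG1KO library was left out, and without WT 2 or WT 3, with adjusted p of 0.0608 to 0.1997. The other losses were with the replicate block (adjusted p = 0.111), only both groups in the fit, RLE factors, library sizes alone, no filter and genes with under 1% shared sequence (adjusted p of 0.0528 to 0.0934). The ratio of Arrb2 to Arrb1 per kb was 3.10 ± 0.478 in WT, 3.37 ± 0.802 in the libraries labelled LysM-DKO and 7.44 ± 2.72 in ABCG1KO. Which arrestin was higher depends on the length scaling. Without it, Arrb2 held 43.9%, 45.8% and 64.4% of the counts of the pair in the same order.

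Dab2, an adaptor that sorts receptors into clathrin pits, and Numb, an adaptor that acts on Notch, did not pass. Dab2 was the most variable member among the well expressed, at 127, 210 and 60.3 CPM in WT and 141, 444 and 220 CPM in the libraries labelled LysM-DKO. The highest of these 6 libraries was 7.36 times the lowest, and the log2 fold change of 1.02 ± 0.51 had an adjusted p of 0.465.

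Aak1 and Gak are kinases that phosphorylate the AP2 mu subunit, and Gak also acts as the auxilin of most tissues. Aak1 was at 30.2, 53.8 and 47.3 CPM in WT, 94.4, 87.8 and 57.6 CPM in the libraries labelled LysM-DKO, and 32.4 and 43.1 CPM in ABCG1KO. All libraries labelled LysM-DKO were above all others. They were higher than ABCG1KO by 1.08 ± 0.30 (2.12-fold, adjusted p = 0.0499), just inside the threshold, and against WT the log2 fold change was 0.87 ± 0.26 (adjusted p = 0.3498). The call against ABCG1KO held in 11 of 21 alternatives and was lost without LysM-DKO 1 or LysM-DKO 2, without either ABCG1KO library and without WT 2 or WT 3, with adjusted p of 0.0609 to 0.251. It was also lost with the replicate block (adjusted p = 0.0709), only both groups in the fit, library sizes alone and genes with under 1% shared sequence (adjusted p of 0.0553 to 0.0684).

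Gak was at 163, 183 and 186 CPM in WT, 240, 223 and 197 CPM in the libraries labelled LysM-DKO, and 169 and 184 CPM in ABCG1KO. The libraries labelled LysM-DKO were above all others, by a log2 fold change of 0.31 ± 0.13 against WT (adjusted p = 0.405). Necap1, an AP2 cofactor, also had its libraries labelled LysM-DKO above all others, at 52.5, 60.3 and 56.6 CPM in WT and 91.3, 69.1 and 70.4 CPM in the libraries labelled LysM-DKO (0.45 ± 0.14, adjusted p = 0.3498). Synj1 and Synj2, the phosphatases that help to shed the coat, and Necap2 did not pass in the edgeR fit. Synj1 was higher in the libraries labelled LysM-DKO than in ABCG1KO by 0.70 ± 0.20 (adjusted p = 0.0574). That difference passed with DESeq2 and without LysM-DKO 3. Dnajc6, the neuronal auxilin, was at 0 to 12 counts per library.

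The ubiquitin-sorting genes act after the pit, on the endosome. Hgs, which binds ubiquitinated cargo there and recruits the ESCRT machinery, was at 87.5, 95.2 and 93.3 CPM in WT, 115, 110 and 94.0 CPM in the libraries labelled LysM-DKO, and 58.3 and 61.2 CPM in ABCG1KO. Both ABCG1KO libraries were below every other library. The annotation holds a second record named Hgs on the same strand that covers 2897 of its exon bases, and how the counting treated it is not given in the sources used here. ABCG1KO held 65.0% of the WT level (-0.62 ± 0.13, adjusted p = 0.0182), and the libraries labelled LysM-DKO were 1.78-fold above ABCG1KO (0.83 ± 0.13, adjusted p = 0.00740). The call against WT was lost without WT 2, WT 3 or ABCG1KO 1 (adjusted p of 0.05002 to 0.0955) and with library sizes in place of TMM factors (-0.39, adjusted p = 0.0623). The call against the libraries labelled LysM-DKO was lost without ABCG1KO 1 (0.78, adjusted p = 0.0603) and held in the other 20 alternatives. The promoter window of Hgs (chr11:120467385-120467634, plus strand, RefSeq, GRCm38.p6) is shown as that of a member that fell in ABCG1KO with none of its transcript stretches shared with another locus, with CG pairs in capitals.
Hgs: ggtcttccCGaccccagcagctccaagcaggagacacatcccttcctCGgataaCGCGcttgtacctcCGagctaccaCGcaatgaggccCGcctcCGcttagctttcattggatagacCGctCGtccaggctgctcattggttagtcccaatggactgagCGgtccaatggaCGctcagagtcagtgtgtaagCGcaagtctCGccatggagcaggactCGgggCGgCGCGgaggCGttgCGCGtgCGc
It held 22 CG pairs and 4 matches of ATTGG, the reverse of the CCAAT box, which was found in 23.7% of the members' windows and in 33.9% of all windows.

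Stam and Stam2, the partners of Hgs, did not pass, and their values in ABCG1KO lay on opposite sides of WT. Stam was at 35.8, 38.8 and 38.3 CPM in WT and 21.5 and 32.1 CPM in ABCG1KO (-0.49 ± 0.21, adjusted p = 0.147), and Stam2 was at 52.5, 55.2 and 46.7 CPM in WT and 57.5 and 69.9 CPM in ABCG1KO (0.31 ± 0.14, adjusted p = 0.184). Stam2 passed with library sizes in place of TMM factors (0.55, adjusted p = 0.0264), and in libraries labelled LysM-DKO against ABCG1KO Stam passed with DESeq2 and without ABCG1KO 2 or LysM-DKO 3. The Stam share of the pair per kb was 32.8% to 37.0% in WT, 32.1% to 37.3% in the libraries labelled LysM-DKO and 21.1% and 24.7% in ABCG1KO.

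**Figure D4:**
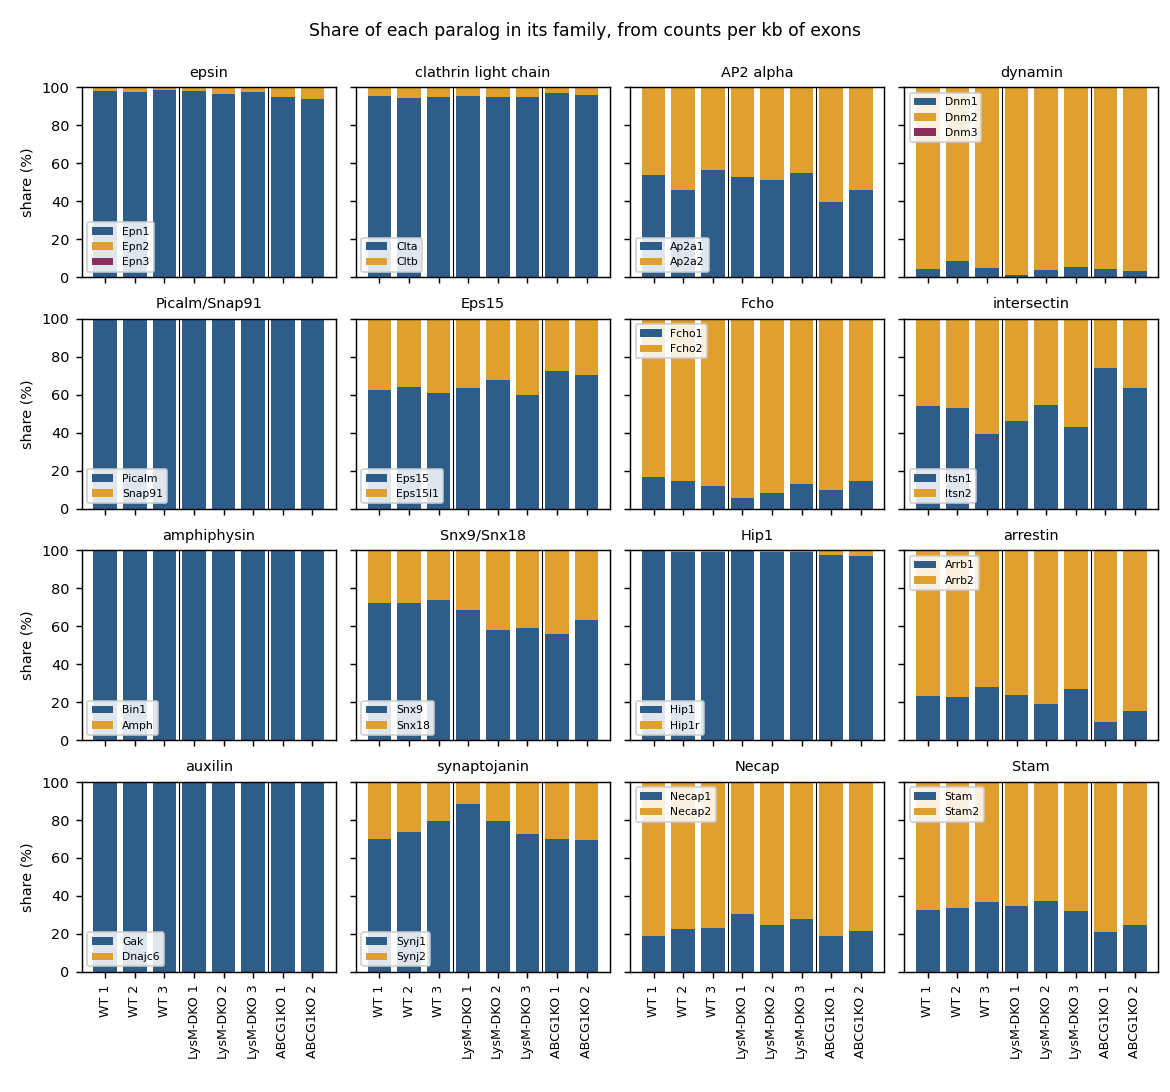
Share of each paralog in its family in each library, from counts per kb of exons, with thin lines between WT, LysM-DKO and ABCG1KO. One paralog made up over 90% of the epsin, clathrin light chain, dynamin, Picalm, amphiphysin, Hip1 and auxilin families in every library, and the ABCG1KO libraries had higher shares of Itsn1 (63.7% and 74.1%), Arrb2 (84.6% and 90.4%) and Stam2 (75.3% and 78.9%) than any other library.

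Across the 16 families of paralogs, one form took over 90% of the pool in every library in 7. Families with a mixed pool were those of AP2 alpha, Eps15, Fcho, intersectin, Snx9, arrestin, synaptojanin, Necap and Stam. Shares sum to 100% within a family, so a rise of one form lowers the share of the other whether or not its own level moved. Between the libraries labelled LysM-DKO and WT, the shares did not overlap for Snx18 (31.5% to 41.8% against 26.0% to 27.8%) and Necap1 (24.8% to 30.6% against 19.0% to 23.1%), and these shares were not tested.

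Genes of 6 neighbouring pathways were followed beside the members. In libraries labelled LysM-DKO against WT, none of the 119 tested genes of these lists passed with edgeR. Of them, 22 had an unadjusted p under 0.05, against 11.7% of all genes tested, and DESeq2 called 4, beside 278 of all genes. In ABCG1KO against WT, where 7.16% of all genes were called higher and 8.75% lower, the 6 lists had 10 of 119 higher and 15 lower. The other clathrin endocytosis factors had 2 of 30 higher and 3 of 30 lower. Hspa8, the Hsc70 that uncoats clathrin, fell from 1547 ± 30.7 (SD, n = 3) to 98.5 ± 5.13 CPM (n = 2), and Tom1, an endosomal partner of clathrin, from 81.0 ± 8.59 to 2.43 ± 0.600 CPM. Both share much sequence with other loci, 37.0% of the stretches of Hspa8 and 52.4% of those of Tom1. Pacsin2, a BAR protein of caveolae and pits, rose by 0.86 ± 0.12 and Inpp5d, an inositol phosphatase, by 0.79 ± 0.20, with under 1% shared.

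The AP1, AP3 and GGA adaptors, which work at the Golgi and endosomes, had 0 of 16 higher and 3 lower in ABCG1KO against WT (background 7.16% and 8.75%). These were Ap3s1 (-2.06), Ap3m1 (-0.58) and Ap1s3 (-1.84), each with 12.2% to 18.8% of shared stretches. The ESCRT complexes, which take cargo from Hgs into the endosome, had 1 of 28 higher and 4 lower, beside the same background. Chmp1b (-0.70 ± 0.12), Stambp (-0.93 ± 0.18) and Chmp5 (-0.56 ± 0.14) fell with under 1% shared, and Tsg101 (-1.15 ± 0.15) with 18.3%. Vps37b rose by 0.85 ± 0.22, from 35.1 ± 1.36 CPM (SD) in WT to 63.1 ± 23.5 CPM in ABCG1KO, whose libraries differed widely.

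Among 20 cargo receptors, 2 were higher and 1 was lower in ABCG1KO, beside a background of 7.16% and 8.75% in this and the next lists. The receptors Notch1 and Igf1r rose by 1.68 ± 0.44 and 1.13 ± 0.26 on the log2 scale. Notch1 was at 37.8 ± 13.3 CPM (SD) in WT and 121 ± 75.5 CPM in ABCG1KO, whose libraries differed widely. Of 11 ubiquitin ligases acting on cargo, 2 were higher and 2 lower. Mylip, an E3 ligase that marks receptors for degradation, rose from 32.5 ± 3.99 to 120 ± 27.7 CPM (1.89 ± 0.29, adjusted p = 0.00488), and Cblb fell by 2.81 ± 0.36. Of 14 genes of caveolae and clathrin-independent uptake, 3 were higher and 2 lower, with Cav1, the coat protein of caveolae, at 6.68 ± 0.831 CPM in WT and 74.6 ± 4.78 CPM in ABCG1KO.

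In libraries labelled LysM-DKO against ABCG1KO, the 6 lists had 10 genes higher and 2 lower among 119 tested, beside 7.72% higher and 5.8% lower over all genes. Mylip (-1.24) and Ehd1 (-1.77) were the genes that were lower in the libraries labelled LysM-DKO. The median log2 fold changes of the lists were -0.26 to 0.13 in ABCG1KO against WT, beside 0.01 for all genes tested and -0.10 for the 42 members. In libraries labelled LysM-DKO against WT they were -0.01 to 0.21, beside 0.02 for all genes.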

How the data were processed

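Raw counts per gene symbol were deposited, 1 table per library, and the lines at the end of each table are those of htseq-count. The submitters' processing notes name STAR 2.7.9a, TopHat, HTSeq 0.11.2, DESeq2 1.30.1, limma and the build mm10, without saying what each was used for. The annotation and the strand setting are not given in the sources used here, so overlapping and antisense genes are uncertain.

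The counts were tested with edgeR 4.0.16 in R 4.3.3. filterByExpr kept 13821 genes, library sizes were scaled by TMM, and all 8 libraries entered 1 quasi-likelihood fit (glmQLFit, glmQLFTest) with a term per group. Residual degrees of freedom were 5 and prior ones 3.23 at the median, with a biological coefficient of variation of 36.1%. Calls are at a Benjamini-Hochberg adjusted p under 0.05 over all genes tested, and intervals are 95%. Per library, 29567615 to 41888516 counts fell in genes, intervals cover the spread between libraries, and lines for reads given to no gene stayed out of library sizes and tests.

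Coordinates, exon lengths and shared 50-base stretches came from GENCODE M21 (GRCm38), whose symbols matched 23376 of 24421, and promoter windows from RefSeq (GRCm38.p6). No genome sequence was used here. The replicate numbers were checked for pairing. Alternatives covered scaling, filters, tool, samples in the fit, a replicate block and leaving out each library.

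The members and lists were chosen with earlier results of these data known. Given in every library were the epsins, Clint1, the clathrin chains, members called in any comparison and the member with the highest mean CPM in each role. Genes of the neighbouring lists were drawn from at most 5 called genes of each list by adjusted p in each comparison. They are given by group mean or fold change, and not all of them are named. Ap2b1, Ap2s1, Itsn1, Itsn2, Dab2, Synj1, Necap1, Stam and Stam2 were chosen for mention once their values were known. So were the paralog families and ratios, the promoters shown, the motifs searched and the limit of 1 CPM per kb. The values of 1 gene counted in a neighbouring list are not reported here.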

Additional observations from a re-analysis of the deposited data

Results flagged for a closer look

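Reads outside the genes form a signal that the comparisons do not use, and 7 values exceeded every WT library. Reads outside annotated genes made up 13.8% in ABCG1KO 1, 10.2% in ABCG1KO 2, 5.93% in LysM-DKO 2 and 6.07% in LysM-DKO 3, against at most 5.88% in WT. Reads aligned to several loci made up 6.93% in ABCG1KO 1, 6.74% in ABCG1KO 2 and 3.01% in LysM-DKO 3, against at most 3.00% in WT. The values of LysM-DKO 2 and 3 lay close above the highest WT library, while those of ABCG1KO were far above it. Ap2m1, the member with the most sequence shared with other loci, was low in the same ABCG1KO libraries. The part of these reads in its fall was not tested.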

How the results depend on the processing

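The members were refitted under 21 alternatives, 15 planned and 6 chosen after seeing the data. Of 2626 log2 fold changes, those of the 42 tested members in the 3 comparisons under each alternative that tested the gene, 2463 kept direction and side of the threshold, 52 kept direction and lost the call, 25 gained one and 86 changed sign, none of these with a call on either side. In LysM-DKO against WT, 3 genes were called, and 6 with RLE factors, 5 with library sizes only, 7 without the filter, 5 with at least 10 counts in every library, 8 with only both groups in the fit, 5 with a robust prior spread, 278 with DESeq2 and 0 to 5 on leaving out a library. Members called there were 0, and 1 with DESeq2. In ABCG1KO against WT, 2199 genes were called, and 1189 among genes with under 1% shared transcript sequence, and 827 to 2910 over all alternatives but DESeq2 (3148), with 827 to 2068 on leaving out a library. Members called there were 5, and 8 with library sizes only, 3 with under 1% shared sequence, 8 with DESeq2 and 1 to 7 on leaving out a library. In LysM-DKO against ABCG1KO, 1869 genes were called, and 930 with only both groups in the fit, 922 with under 1% shared sequence, 2947 with DESeq2 and 540 to 1959 on leaving out a library. Members called there were 6, and 3 with only both groups, 2 with under 1% shared sequence, 10 with DESeq2 and 2 to 6 on leaving out a library. Fits on shared sequence tested fewer genes, without Ap2m1, Cltc and Reps1, and the causes of the other shifts were not tested.

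The replicate block gave 0, 1448 and 1033 genes and 0, 4 and 3 members in the same order of comparisons. Same-numbered WT and LysM-DKO libraries deviated together with correlations of 0.041, 0.426 and -0.014, and not every library correlated best with its own number, so the numbers were not taken to pair the libraries. The planned search of shared sequence in the genome was not run, since no genome was used here, and transcripts stood in for it.

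Sign changes with library sizes only were those of Ap2m1 in LysM-DKO against WT (0.11), and of Cltb (0.053), Ap2b1 (0.019), Necap1 (0.16), Picalm (0.21), Aak1 (0.021) and Gak (0.23) in ABCG1KO against WT, and Gak was at 0.014 with at least 10 counts in every library. On leaving out a library, values in LysM-DKO against WT ran from -0.31 to 0.40 for Epn2, -0.034 to 0.13 for Cltc, -0.27 to 0.0064 for Clta, -0.17 to 0.030 for Ap2m1 and -0.094 to 0.29 for Hip1. In ABCG1KO against WT they ran from -0.048 to 0.13 for Cltc, -0.21 to 0.21 for Picalm, -0.19 to 0.012 for Necap1 and -0.078 to 0.048 for Gak, and in LysM-DKO against ABCG1KO from -0.12 to 0.10 for Snx18. These sign changes are those of the genes given by library. Without length scaling, 32 of 51 paralog shares moved by more than the spread between libraries. With 2 ABCG1KO libraries, leaving one out assumes that the other varies like the other groups.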
